A study of Mus musculus with 8 samples.

Results

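The genes described here are the nuclear genes for the enzymes of mitochondrial respiration, measured in LLC1 cells, a mouse Lewis lung carcinoma line from the C57BL/6 strain. They were chosen by name: every scanner-file symbol starting with Ndufa, Ndufb, Ndufc, Ndufs, Ndufv, Uqcr, Cox4 to Cox8 or Atp5, and the symbols Sdha, Sdhb, Sdhc and Sdhd. The rule found 92 symbols, and 88 of them had a probe above the negative controls on 2 or more arrays, out of 13343 genes tested in all. The other 4, Cox4i2, Cox7b2, Cox8b and Cox8c, were above them on 0 arrays. RNA was taken 4 h after X-rays, and each array held irradiated cells in Cy5 against untreated cells of the same line in Cy3. Irradiated cells had received 1 dose of 2 Gy (3 arrays), 1 dose of 10 Gy (2 arrays) or 5 doses of 2 Gy, written 5x2 Gy and adding up to 10 Gy (3 arrays). The labels call the arrays biological replicates and count 3 for 10 Gy, of which 1 was not analysed here. No array had the dyes exchanged, so each comparison with untreated cells also holds any dye effect of the probe.

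The respiratory chain passes electrons from NADH (complex I) and succinate (complex II) through complexes III and IV to oxygen, and ATP synthase (complex V) uses the resulting proton gradient to make ATP. A few subunits of complexes I, III, IV and V are made inside mitochondria from mitochondrial DNA, and all others come from nuclear genes whose proteins are imported. Nuclear respiratory factor 1 (NRF1), the ETS family factor GABP, YY1 and the receptor ESRRA are known to drive many of these nuclear genes, and TFAM maintains and transcribes mitochondrial DNA. Of the 88 genes, 37 belong to complex I by name, 7 are complex I assembly factors (Ndufaf), 4 belong to complex II, 8 to III, 14 to IV and 18 to V. Some symbols of the array are old or misleading: Ndufa4 is now placed in complex IV, and Atp5f1, Atp5s and Atp5sl are Atp5pb, Dmac2l and Dmac2 in RefSeq. Atp5c1-ps is by its name a pseudogene of Atp5c1, with which it could share signal.

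The promoters below are shown for the motifs of these factors that they hold, and they belong to genes called in at least 1 comparison, so they were picked after the values were seen. RefSeq (GRCm38.p6) gave a promoter of 300 bases, most of them before the gene start, for 74 of the 88 genes. On either strand, the core GCATGCGC of the NRF1 motif stood in 12 of the 74 (16.2%), against 3.05% of 27025 genes with a promoter. The longer NRF1 motif, the same core with GC before it, stood in 7 (9.46%, against 1.07%). The GABP/ETS motif CCGGAAG stood in 17 (23.0%, against 9.93%) and the YY1 motif AAGATGGC in 11 (14.9%, against 3.19%). Cox6a1, Ndufa11, Atp5k and Uqcrc1 hold the longer NRF1 motif, Cox6a1, Atp5k and Ndufs3 the GABP/ETS motif and Ndufc1 the YY1 motif. Each is printed 5′ to 3′ on the strand of its gene, with the motif in capitals. The first 4 genes were higher after 2 Gy, and Ndufs3 and Ndufc1 were lower after 5x2 Gy.
Cox6a1 (chr5:115348909-115349208, - strand): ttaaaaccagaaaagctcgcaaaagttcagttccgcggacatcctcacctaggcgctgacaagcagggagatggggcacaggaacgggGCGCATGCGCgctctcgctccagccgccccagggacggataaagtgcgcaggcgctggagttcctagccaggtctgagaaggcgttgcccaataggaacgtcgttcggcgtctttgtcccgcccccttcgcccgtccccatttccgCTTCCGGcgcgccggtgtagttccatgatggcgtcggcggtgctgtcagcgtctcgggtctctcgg
Ndufa11 (chr17:56717512-56717811, + strand): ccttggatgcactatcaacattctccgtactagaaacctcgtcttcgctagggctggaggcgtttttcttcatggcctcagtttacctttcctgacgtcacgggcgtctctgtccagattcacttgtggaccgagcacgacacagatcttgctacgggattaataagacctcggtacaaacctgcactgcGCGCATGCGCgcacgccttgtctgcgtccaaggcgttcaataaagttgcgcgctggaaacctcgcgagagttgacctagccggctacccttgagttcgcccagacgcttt
Atp5k (chr5:108434350-108434649, - strand): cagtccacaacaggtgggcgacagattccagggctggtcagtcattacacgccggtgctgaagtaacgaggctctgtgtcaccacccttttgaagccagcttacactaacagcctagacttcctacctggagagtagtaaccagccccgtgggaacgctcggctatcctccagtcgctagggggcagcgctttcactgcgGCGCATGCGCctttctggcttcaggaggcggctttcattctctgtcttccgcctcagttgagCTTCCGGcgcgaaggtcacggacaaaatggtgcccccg
Uqcrc1 (chr9:108936398-108936697, + strand): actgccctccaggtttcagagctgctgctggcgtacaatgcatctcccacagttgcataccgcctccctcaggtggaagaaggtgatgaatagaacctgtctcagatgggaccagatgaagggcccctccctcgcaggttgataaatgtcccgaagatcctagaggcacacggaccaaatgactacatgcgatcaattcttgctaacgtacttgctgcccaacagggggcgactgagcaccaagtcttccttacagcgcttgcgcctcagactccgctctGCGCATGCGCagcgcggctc
Ndufs3 (chr2:90904672-90904971, - strand): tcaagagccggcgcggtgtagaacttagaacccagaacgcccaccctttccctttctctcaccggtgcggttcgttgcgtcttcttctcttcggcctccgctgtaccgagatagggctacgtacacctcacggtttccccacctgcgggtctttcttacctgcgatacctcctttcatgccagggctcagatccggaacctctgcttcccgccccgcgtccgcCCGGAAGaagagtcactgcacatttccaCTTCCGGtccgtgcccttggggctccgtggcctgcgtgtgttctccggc
Ndufc1 (chr3:51408906-51409205, - strand): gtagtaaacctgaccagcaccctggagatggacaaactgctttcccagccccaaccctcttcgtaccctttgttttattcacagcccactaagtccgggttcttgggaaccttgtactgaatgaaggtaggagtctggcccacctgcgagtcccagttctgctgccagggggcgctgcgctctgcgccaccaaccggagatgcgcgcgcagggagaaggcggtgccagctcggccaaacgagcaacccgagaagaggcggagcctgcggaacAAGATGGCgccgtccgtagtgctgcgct

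The brightness and the layout of the arrays bear on everything that follows. Of the 88 genes, 62 had a mean log2 intensity of at least 13, which 1399 of all 13343 genes had. A spot counts as saturated where its median pixel reached the ceiling of the scanner. That was so for Cox6a1 on 7 arrays, Atp5l on 3, Atp5b and Cox8a on 2 each, and Atp5c1, Cox4i1, Cox5b and Uqcr10 on 1 each, and their ratios are inexact there. The files name 2 scan images of 4 arrays each, called slides here. All 2 Gy arrays shared slide 1 with replicate 1 of 10 Gy, all 5x2 Gy arrays shared slide 2 with the other 10 Gy replicate, and 2 Gy and 5x2 Gy never met on a slide. The 10 Gy arrays stood apart from each other: over the 88 genes their log2 ratios correlated at r = 0.18, against 0.48 to 0.73 among 2 Gy arrays and 0.75 to 0.80 among 5x2 Gy arrays. Between 10 Gy replicate 2 and its 5x2 Gy slide mates r was 0.59 to 0.71, and genes are not independent replicates. Of epithelial markers fixed for a carcinoma, Krt8, Krt18 and Krt19 were above background on 8 arrays, while Epcam and Cdh1 were not kept. Nor were the alveolar markers Sftpc and Nkx2-1, the leukocyte marker Ptprc and the endothelial marker Pecam1. The other endothelial marker, Cdh5, was kept and not called. All 3 mesenchymal and all 3 fibroblast markers were kept. After 5x2 Gy 1 mesenchymal marker was called higher and 1 fibroblast marker lower, against 17.6% and 23.3% of all genes. Of 2 leukocyte markers kept of 3, Cd68 was called higher after 10 Gy (1.22) and 5x2 Gy (0.84) and Cd3e was not called. Krt18 was called lower at each regimen (-0.48, -0.89 and -0.63), Krt19 lower after 10 Gy (-0.87), also against 2 Gy (-1.29), Krt8 higher after 5x2 Gy (0.77) and the alveolar marker Sftpb lower after 5x2 Gy (-0.40). The part of these markers in the results was not tested. In RNA of a whole culture, less RNA per cell and fewer cells with the transcript cannot be told apart.

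Over the whole set the log2 ratio of irradiated over untreated cells was above 0 after the single doses and below 0 after 5x2 Gy. The median of the 88 genes was 0.20, 0.17 and 0.23 on the 2 Gy arrays, 0.32 and 0.084 on the 10 Gy arrays, and -0.040, -0.20 and -0.16 on the 5x2 Gy arrays. All 3 arrays of 5x2 Gy thus lay below all arrays of the single doses. These medians averaged 0.20 ± 0.034 for 2 Gy (SD, n = 3), 0.20 ± 0.16 for 10 Gy (n = 2) and -0.13 ± 0.084 for 5x2 Gy (n = 3), after loess normalization, which sets each array's overall trend to 0 at every brightness. With each array only centred on its median, they averaged 0.69, 0.66 and -0.013. Of the complexes, IV was at 0.25, 0.20 and 0.33 on the 2 Gy arrays and at 0.066, -0.12 and 0.033 on the 5x2 Gy arrays. Complex III was at 0.27, 0.19 and 0.24 on the 2 Gy arrays, at -0.19 and -0.0076 on the 10 Gy arrays, and at -0.41, -0.26 and -0.33 on the 5x2 Gy arrays. The 7 Ndufaf factors, which help to assemble complex I, had medians of -0.15, -0.15 and -0.29 on the 2 Gy arrays, below 0 where complex I was above it.

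**Figure D1:**
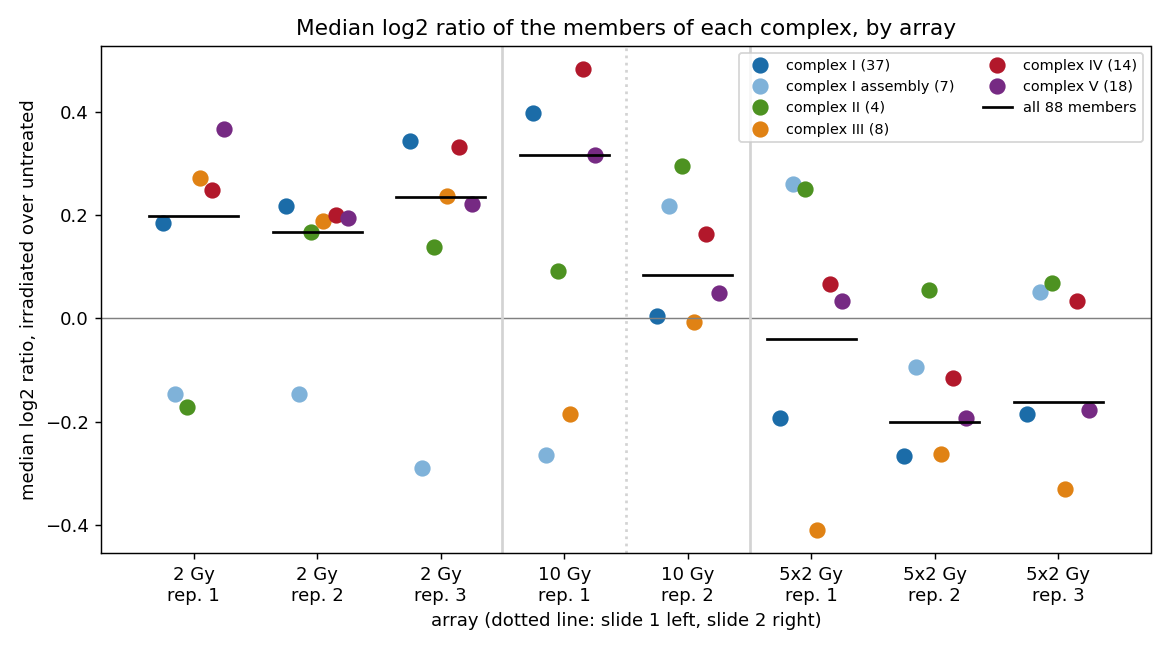
Median log2 ratio of irradiated over untreated cells (vertical axis) on each of the 8 arrays (horizontal axis), 1 point for each complex, with a black line for the median of all 88 genes. The black line lies above 0 on the 2 Gy and 10 Gy arrays and below 0 on the 5x2 Gy arrays, between -0.20 and -0.040, and the dotted line parts slide 1 from slide 2.

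After 2 Gy, genes of complexes I, III, IV and V rose against untreated cells, and no subunit gene was called lower in the fit of all 8 arrays. With slide as a fixed block 18 of the 81 genes other than Ndufaf were higher and 5 lower, when 33.2% of all genes were called in either direction. The median of the 81 was then 0.039, against 0.25 without the block. In limma at an adjusted p under 0.05, 21 of the 88 genes were higher and 2 lower, against 8.96% and 7.95% of all 13343 genes. None of the 88 (0) and 0.165% of all genes were called with slide as a random block, which estimates a correlation within slides. Without replicate 1, 2 or 3 of 2 Gy, 11, 7 and 5 of the 88 were called, all higher, when 7.02%, 3.61% and 3.03% of all genes were called. The median of the 88 mean log2 ratios was 0.24, against -0.0030 for all genes. Without the 7 Ndufaf genes, 20 of 81 were higher and 0 lower. The counts were 8 of 37 for complex I, 0 of 4 for II, 2 of 8 for III, 4 of 14 for IV and 6 of 18 for V. On all 3 arrays, 53 of the 88 lay above 0, against 31.4% of all genes, and 12 lay below 0, against 33.1%.

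Within ATP synthase, the genes that rose belong to the catalytic head F1, the peripheral stalk that holds it still, and the membrane part. Atp5l, subunit g of the membrane part, had log2 ratios of 0.71, 0.71 and 0.84 on the 2 Gy arrays, with a saturated irradiated spot on 2 of them. All 3 lay well above 0, and the mean was 0.75 ± 0.13 (SE from limma, here and below unless stated, adjusted p = 0.0058). Atp5d, the delta subunit of the central stalk, had 0.58, 0.82 and 0.49, for a mean of 0.63 ± 0.13 (adjusted p = 0.011). Of the stalk, Atp5j was at 0.60 ± 0.12 and Atp5h at 0.55 ± 0.14, and of the membrane part Atp5k was at 0.47 ± 0.099 (adjusted p = 0.013), all called. None of the 3 genes for the c ring, the rotor that protons turn (Atp5g1, Atp5g2 and Atp5g3), passed the test. Atp5b, the catalytic beta subunit, had the smallest p of the 88, with 0.67, 0.94 and 0.77 and a mean of 0.79 ± 0.12 (adjusted p = 0.0032). That is the value of its brightest probe, saturated on 2 arrays, and its brightest probe without saturation was at -0.11 ± 0.18.

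In complexes III and IV the highest genes after 2 Gy were Uqcrc1 and Cox6a1. Cox6a1, the general isoform of subunit 6A of cytochrome c oxidase, had 0.80, 0.64 and 0.49. Its irradiated spot was saturated on all 3 arrays and its untreated spot on 0, so it rose at least 1.56-fold (adjusted p = 0.0032). After 10 Gy it rose at least 1.32-fold, with both irradiated spots saturated (0.49 and 0.32, adjusted p = 0.028). Such bounds set the saturated mean against the untreated one. Cox5a, the subunit at which thyroid hormone T2 is known to bind the oxidase, had 0.62, 0.52 and 0.36 and a mean of 0.50 ± 0.094 (adjusted p = 0.0085). Cox4i1, the general isoform of subunit 4, was at 0.44 ± 0.12 with 1 saturated array. Uqcrc1, a core protein of complex III, had 0.83, 0.59 and 0.85, for a mean of 0.76 ± 0.13 (adjusted p = 0.0061). All 3 values were high, but the other probe of Uqcrc1 was at 0.018 ± 0.098. Uqcr11, a small subunit of complex III, had 0.57, 0.59 and 0.60 and a mean of 0.59 ± 0.11 (adjusted p = 0.0083), with almost no spread between its arrays.

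In complex I, 7 of 30 accessory subunits and 1 of 7 core subunits rose after 2 Gy. Ndufa11, a membrane subunit at the joint of the complex, had 0.56, 0.74 and 0.63, for a mean of 0.64 ± 0.10 (adjusted p = 0.0042). Ndufv3, an accessory subunit of the NADH-binding module, had 0.66, 0.50 and 0.59, for a mean of 0.58 ± 0.086 (adjusted p = 0.0034), and its other 2 probes were also called, at 0.87 and 0.68. Ndufb8 was at 0.64 ± 0.16 and Ndufb11 at 0.53 ± 0.12, both accessory subunits of the membrane arm. The core subunit was Ndufv1, which carries the flavin that accepts electrons from NADH, with 0.35, 0.34 and 0.39 and a mean of 0.36 ± 0.093 (adjusted p = 0.028). Among the assembly factors Ndufaf3 rose (0.37 ± 0.086) and Ndufaf2 fell (-0.45 ± 0.12, adjusted p = 0.030). Ndufaf4 was called lower at -0.53 ± 0.12 on its brightest probe, and at 1.16 ± 0.12 on its dimmest one.

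Complex II gave no call in any of the 6 comparisons of the fit without a block. Sdha, the flavoprotein of succinate dehydrogenase, had -0.21, 0.12 and 0.20 on the 2 Gy arrays, -0.74 and 0.26 on the 10 Gy arrays, and 0.13, 0.16 and 0.23 on the 5x2 Gy arrays. The 10 Gy arrays lay on both sides of all others, and with slide as a fixed block Sdha was called lower after 10 Gy than after 2 Gy (-0.78 ± 0.17, adjusted p = 0.0063). Sdhb, the iron-sulphur subunit, had means of 0.16 ± 0.12, 0.20 ± 0.15 and -0.18 ± 0.12 after 2 Gy, 10 Gy and 5x2 Gy. The membrane anchors were at 0.30 ± 0.15, 0.24 ± 0.18 and 0.29 ± 0.15 for Sdhc, and at -0.052 ± 0.11, 0.20 ± 0.13 and 0.12 ± 0.11 for Sdhd. With such errors, changes of the size called elsewhere are not shown to be absent.

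After 10 Gy, 18 of the 88 genes rose against untreated cells and 3 fell, and the highest were Cox6c and Ndufc2. Of all genes 12.4% rose and 15.8% fell, 28.2% in either direction. The median was 0.17, against -0.056 for all genes. The counts higher were 10 of 37 for complex I, all of them accessory subunits, 5 of 14 for IV, 3 of 18 for V, and 0 for II, III and the Ndufaf genes. With median centring 52 of the 88 were higher and 1 lower, when 29.2% of all genes were called in either direction. Cox6c, a small subunit of cytochrome c oxidase, had log2 ratios of 1.53 and 0.67, for a mean of 1.10 ± 0.20 (adjusted p = 0.0037). Ndufc2, of the membrane arm of complex I, had 1.41 and 0.50, for a mean of 0.96 ± 0.19 (adjusted p = 0.0059). Both genes were above 0 on both arrays, and replicate 1 was by far the higher. Both arrays lay above 0 for 40 of the 88 (27% of all genes) and below 0 for 11 (33.5%). Ndufa11 repeated closely, with 0.68 and 0.48 and a mean of 0.58 ± 0.12 (adjusted p = 0.0082). Ndufa6 had 0.56 and 0.40, for a mean of 0.48 ± 0.11 (adjusted p = 0.011), against -0.13, 0.04 and -0.07 on the 2 Gy arrays.

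The genes that fell after 10 Gy were Uqcrc2, Atp5f1 and Atp5s. Uqcrc2, the other core protein of complex III, had -0.60 and -0.79 on the 10 Gy arrays, for a mean of -0.69 ± 0.13 (adjusted p = 0.0052). It lay below 0 on all 8 arrays, at -0.39, -0.042 and -0.44 after 2 Gy and at -0.72, -0.63 and -0.39 after 5x2 Gy, while its partner Uqcrc1 was above 0 on 7 of 8. Atp5f1, subunit b of the peripheral stalk of ATP synthase, was at -0.38 ± 0.11, and at 0.19 ± 0.15 with median centring. Atp5s, formerly counted as a coupling factor of ATP synthase, was at -0.34 ± 0.11 (adjusted p = 0.041). The calls at this dose depended on how the spread was estimated. With slide as a random block 2 of the 88 were called (10.9% of all genes), and with the 10 Gy arrays fitted alone 0 (2.29%). Without replicate 2 the counts were 37 higher and 6 lower, and without replicate 1 they were 12 and 5, when 45.4% and 35.2% of all genes were called.

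After 5x2 Gy, 25 of the 88 genes were lower than in untreated cells and 5 higher, against 23.3% and 17.6% of all genes. The 88 thus held 28.4% lower genes, near the share of the whole array, and 5.68% higher ones. The median was -0.16, against -0.020 for all genes. The lower genes were 12 of 37 in complex I, 1 of 7 Ndufaf genes, 0 of 4 in II, 3 of 8 in III, 4 of 14 in IV and 5 of 18 in V. With median centring the split was 9 higher and 10 lower, when 39.0% of all genes were called in either direction. With slide as a fixed block it was 8 higher and 10 lower (36.6% of all genes). With slide as a random block 0 of the 88 were called (6.1% of all genes). Without replicate 1, 2 or 3 of 5x2 Gy 15, 11 and 11 were called (24.0%, 23.0% and 22.4% of all genes). On all 3 arrays, 44 of the 88 lay below 0 (39.9% of all genes) and 18 above 0 (35.6%).

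The lowest value was that of Uqcrb, the ubiquinone-binding protein of complex III. It had -0.75, -1.28 and -0.93 on the 5x2 Gy arrays, for a mean of -0.99 ± 0.15 (0.505-fold, adjusted p = 0.0010). Uqcrfs1, the Rieske iron-sulphur protein that hands electrons on within the same complex, had -0.54, -0.41 and -0.43, for a mean of -0.46 ± 0.092 (adjusted p = 0.0039). Uqcrc2 was at -0.58 ± 0.11 (adjusted p = 0.0032). So 3 of 8 genes of complex III fell, and the other 5 did not pass the test in either direction.

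In complex I after 5x2 Gy, 2 core subunits fell: Ndufv2 and Ndufs3. Ndufv2, an iron-sulphur subunit beside the flavin site, had -0.64, -0.78 and -0.81, for a mean of -0.74 ± 0.10 (adjusted p = 0.00081). Its neighbour Ndufv1 had -0.18, -0.16 and -0.22 and did not pass the test. Ndufs3, a core subunit of the arm that carries electrons to ubiquinone, had -0.50, -0.58 and -0.53, for a mean of -0.54 ± 0.11 (adjusted p = 0.0055). Of the accessory subunits, Ndufb3 was at -0.79 ± 0.15 (adjusted p = 0.0029), Ndufc1 at -0.63 ± 0.12 (adjusted p = 0.0039), and the calls for Ndufa2, Ndufs5, Ndufab1, Ndufb6, Ndufb10, Ndufs4 and Ndufa9 lay between -0.53 and -0.25. Ndufv3 was called lower at -0.28 ± 0.086, but its other 2 probes were called higher, at 0.43 and 0.34. Ndufa7 was called higher at 0.24 ± 0.088, and its other probe lower, at -0.44.

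In complexes IV and V after 5x2 Gy, Cox5a had -0.37, -0.46 and -0.57, for a mean of -0.47 ± 0.094 (adjusted p = 0.0043), on the other side of 0 from every 2 Gy array. Cox7c and Cox7b, small subunits of the oxidase, fell as well, at -0.59 ± 0.14 and -0.46 ± 0.10. In ATP synthase Atp5g1, 1 of 3 genes for the same c ring protein, had -0.50, -0.59 and -0.53 and a mean of -0.54 ± 0.13 (adjusted p = 0.011), while Atp5g2 and Atp5g3 did not pass the test. Atp5a1, the alpha subunit of F1, went the other way with 0.38, 0.28 and 0.42, for a mean of 0.36 ± 0.088 (adjusted p = 0.011). Atp5b was called higher at 0.33 ± 0.12 on its brightest probe, with 0.014, 0.53 and 0.45. That probe was saturated on 2 Gy arrays only, not on these. Its brightest probe without saturation on any array was at -0.15 ± 0.18. Ndufaf3, a complex I assembly factor, had 0.38, 0.39 and 0.46, for a mean of 0.41 ± 0.086 (adjusted p = 0.0049).

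**Figure D2:**
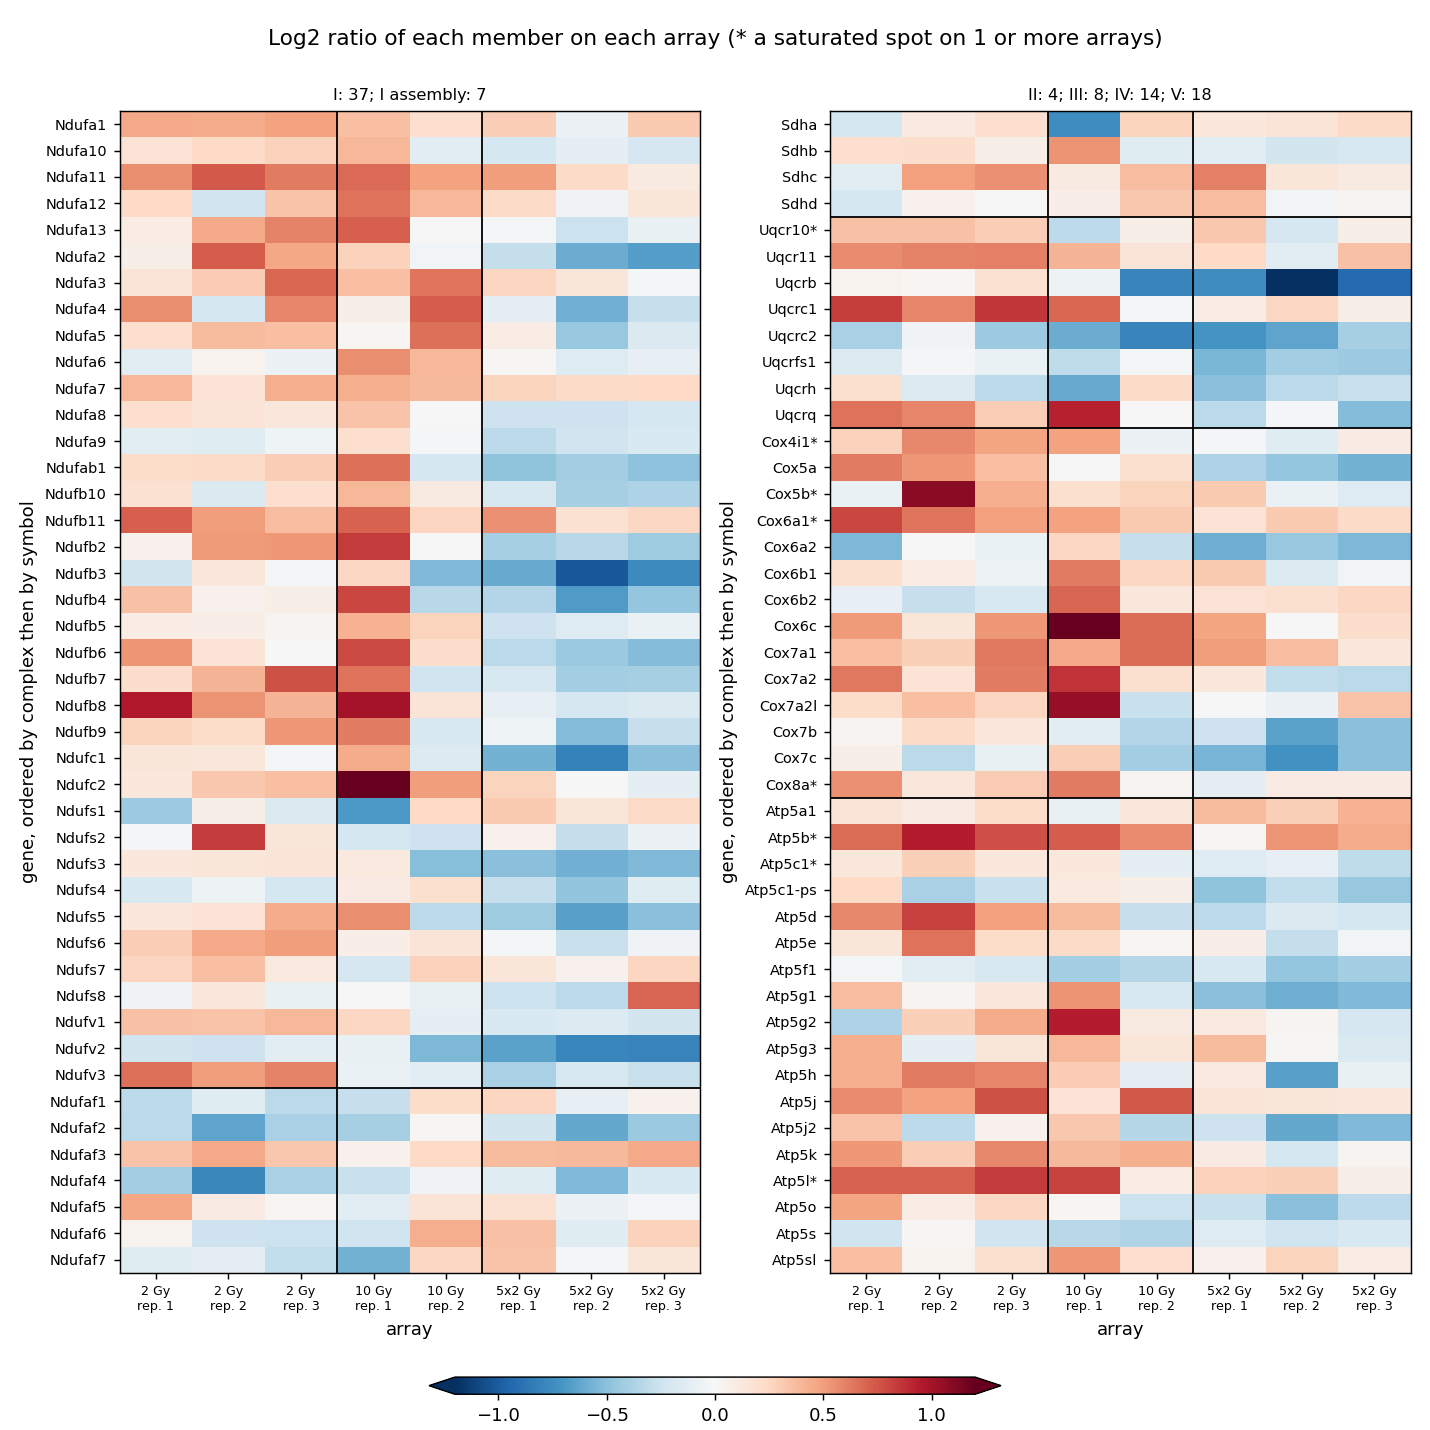
Log2 ratio of irradiated over untreated cells for each of the 88 genes (rows, by complex and then by symbol) on each of the 8 arrays (columns, by regimen), red above 0 and blue below 0, with the colour scale ending at the values of the bar. Uqcrb, Ndufv2 and Ndufb3 are blue on the 5x2 Gy arrays, Atp5b, Cox6a1 and Ndufa11 are red on the 2 Gy arrays, and a star marks the 8 genes with a saturated spot.

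Several oxidase subunits come as pairs of a general and a tissue-restricted isoform, and they are given here side by side. Cox7a1, known as the heart and muscle isoform, had 0.36, 0.29 and 0.63 on the 2 Gy arrays, 0.45 and 0.67 on the 10 Gy arrays, and 0.50, 0.37 and 0.13 on the 5x2 Gy arrays. It was above 0 on every array, with means of 0.43 ± 0.11, 0.56 ± 0.13 and 0.33 ± 0.11 (adjusted p = 0.026, 0.013 and 0.034). Its probe was dim, with a mean log2 intensity of 9.30 against 14.24 for Cox7a2. The general isoform Cox7a2 was at 0.47 ± 0.15, 0.53 ± 0.19 and -0.16 ± 0.15 and passed the test at no regimen. Cox6a2, the muscle isoform of subunit 6A, was not well above background in the irradiated channel of the 3 arrays of 5x2 Gy, and it fell at least 1.36-fold there (adjusted p = 0.012). Cox6b2, the testis isoform of subunit 6B, and Cox6b1 both rose after 10 Gy (0.42 ± 0.14 and 0.44 ± 0.15, adjusted p = 0.047 and 0.049). The probe of Cox6b2 was dim as well, at 9.38 against 13.37 for Cox6b1. Cox4i2, Cox8b and Cox8c, the restricted isoforms of subunits 4 and 8, were below background, while Cox8a was at 0.33 ± 0.13, 0.33 ± 0.16 and 0.028 ± 0.13 without a call. Ndufa4 passed the test at no regimen (0.31 ± 0.18, 0.40 ± 0.22 and -0.33 ± 0.18).

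The regimens were then compared with each other, which asks whether dose or fractionation changed the response. Between 5x2 Gy and 2 Gy, 3 of the 88 genes were called, all lower after 5x2 Gy (of all genes 0.892% were lower and 0.367% higher, 1.26% in either direction). Cox5a had -0.37, -0.46 and -0.57 on the 5x2 Gy arrays, against 0.62, 0.52 and 0.36 on the 2 Gy arrays. The groups did not overlap, and the difference was -0.97 ± 0.13 (0.511-fold, adjusted p = 0.034). Uqcrb had -0.75, -1.28 and -0.93 on the 5x2 Gy arrays, against 0.046, 0.022 and 0.18 on the 2 Gy arrays. The difference was -1.07 ± 0.21 (adjusted p = 0.046), and the groups again stood clear of each other. Ndufv3 had -0.39, -0.19 and -0.26 on the 5x2 Gy arrays, against 0.66, 0.50 and 0.59 on the 2 Gy arrays, a difference of -0.86 ± 0.12 (adjusted p = 0.037). Its other 2 probes were at -0.44 and -0.34 in this comparison, without a call.

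The set as a whole lay lower after 5x2 Gy than after 2 Gy. The median difference was -0.38, against -0.019 for all genes. All 5x2 Gy arrays were below all 2 Gy arrays for 48 of the 88 (25.8% of all genes) and above them for 5 (21.1%). For 25 of the 88, all 5x2 Gy arrays lay below 0 and all 2 Gy arrays above 0, against 5.43% of all genes. No slide held both regimens, and the 10 Gy replicates, 1 on each slide, differed in the same direction: replicate 2 minus replicate 1 had a median of -0.24 over the 88 genes, with 61 below 0. Slide and regimen thus cannot be told apart in this comparison except through the 10 Gy arrays. Over the 81 genes other than Ndufaf the median difference was -0.41, against -0.081 with slide as a fixed block and -0.20 with slide as a random block. With slide as a fixed block Uqcrb was at -0.34 and lost its call, while Cox5a was at -1.16 and Ndufv3 at -0.81, both called. As a random block, slide left Cox5a called (-1.10, adjusted p = 0.034), and Ndufv3 was at -0.82 (adjusted p = 0.055) and Uqcrb at -0.56 (adjusted p = 0.27). Leaving out any 1 array of 2 Gy or 5x2 Gy left 0 calls among the 88 and among all genes (0%). Without both 10 Gy arrays 2 genes were higher and 45 lower, when 29.9% of all genes were called.

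**Figure D3:**
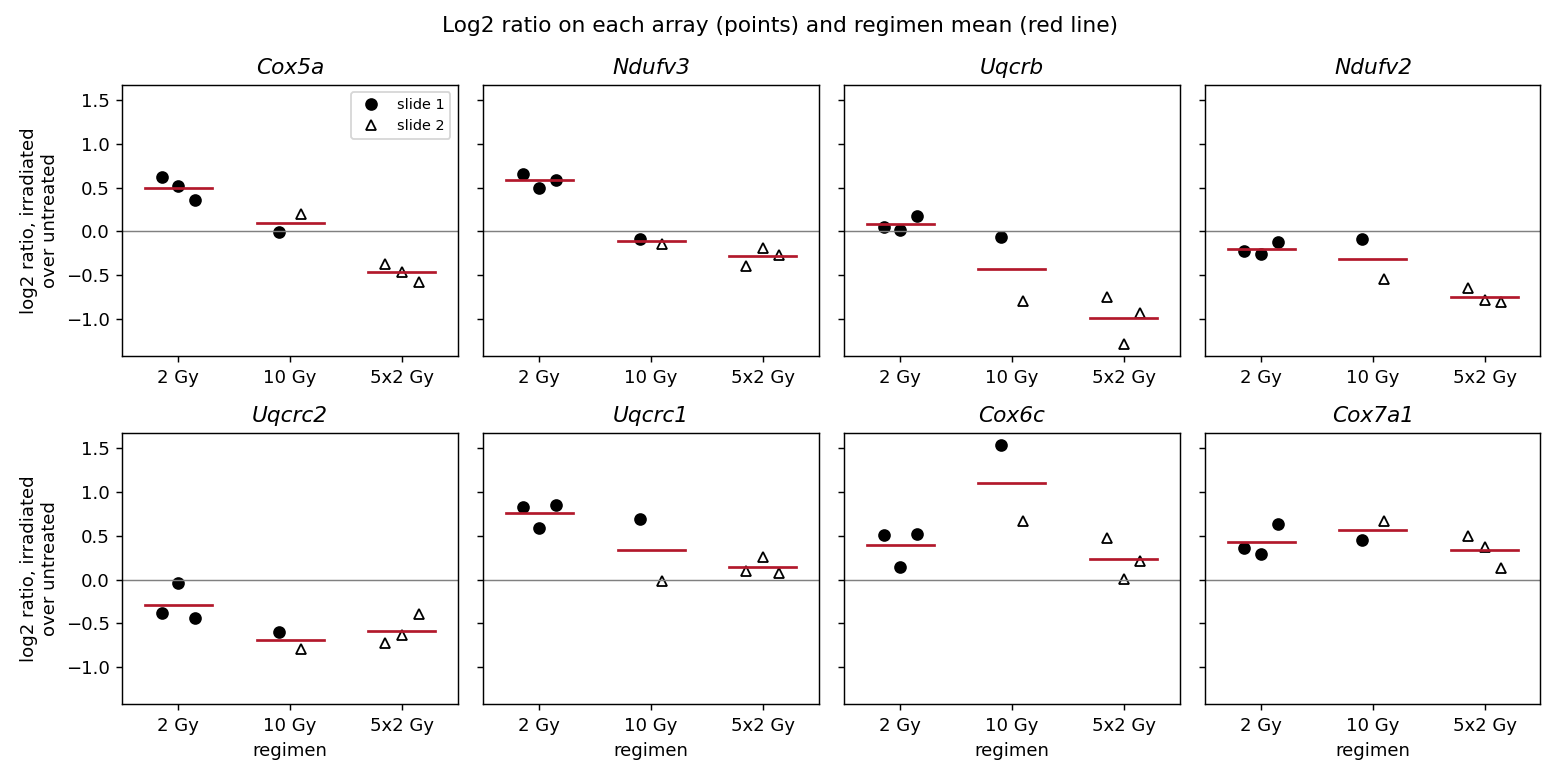
Log2 ratio of irradiated over untreated cells (vertical axis) of 8 genes on each array, by regimen (horizontal axis), with filled circles for slide 1, open triangles for slide 2 and a red line for the mean of a regimen. Cox5a and Ndufv3 have 5x2 Gy arrays below 0 and 2 Gy arrays above 0, Uqcrb is low on all 4 arrays of slide 2, and Cox7a1 is above 0 on every array.

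Between 10 Gy and 2 Gy, 1 of the 88 genes was called, Ndufv3, against 1.04% of all genes higher and 1.52% lower, 2.56% in either direction. It had -0.08 and -0.14 on the 10 Gy arrays, against 0.66, 0.50 and 0.59 on the 2 Gy arrays, without overlap. The difference was -0.69 ± 0.14 (adjusted p = 0.041), and its other 2 probes were at -0.36 and -0.24 without a call. The call was lost without any 1 array of 2 Gy or 5x2 Gy (adjusted p = 0.076 to 0.149), with the replicate number as a block (0.132), with median centring (0.0607) and with the mean of its probes (0.0893). Without any 1 of those arrays, 0% to 0.0375% of all genes were called. Within slide 1 alone, 10 Gy replicate 1 was at -0.66 from the mean of the 2 Gy arrays for Ndufv3, 1.14 for Cox6c and 1.14 for Ndufc2. Both 10 Gy arrays lay above all 2 Gy arrays for 11 of the 88 (14% of all genes) and below them for 19 (18.2%). The median over the 88 genes within that slide was 0.040, with 46 above 0 and 42 below. With slide as a fixed block 10 of the 88 were higher and 5 lower, when 32.1% of all genes were called. Among them were Cox6c (1.14 ± 0.21, adjusted p = 0.0018), Ndufc2 (1.14 ± 0.18, adjusted p = 0.00073) and Cox6b2 (0.89 ± 0.14, adjusted p = 0.00093), higher, and Sdha, Ndufv3, Uqcr10, Cox5a and Ndufs7, lower (-0.78 to -0.44). That comparison rests on 1 array of 10 Gy.

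Between 5x2 Gy and 10 Gy, regimens of the same total dose, 0 of the 88 genes and 0 of all 13343 were called (0%) in limma. The smallest p of the 88 was that of Ndufb6, an accessory subunit of the membrane arm of complex I. It had -0.32, -0.44 and -0.52 on the 5x2 Gy arrays, against 0.79 and 0.21 on the 10 Gy arrays, a difference of -0.93 ± 0.21 that did not pass (adjusted p = 0.18). The next were Ndufa6 at -0.56 ± 0.14 (adjusted p = 0.20) and Ndufc1 at -0.77 ± 0.20 (adjusted p = 0.20). All 5x2 Gy arrays were below both 10 Gy arrays for 39 of the 88 (14.5% of all genes) and above them for 3 (15.6%). Slide 2 held both regimens, and there the 5x2 Gy mean was below 10 Gy replicate 2 for 75 of the 88, with a median of -0.16 and 49.9% of all genes above 0. Without 10 Gy replicate 2, 4 genes were called higher and 41 lower, when 43.2% of all genes were called, and the 10 Gy array left was on the other slide from the 5x2 Gy arrays.

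Brightness moved with the ratios. Across the 88 genes, which differ in probe and share each array, Spearman's rho between a gene's mean log2 intensity and its log2 ratio was 0.47 to 0.56 on the 2 Gy arrays, 0.32 and 0.15 on the 10 Gy arrays and 0.11 to 0.20 on the 5x2 Gy arrays. Over all genes it was -0.0099 to 0.0076 on the 2 Gy arrays. The 62 brighter genes had medians of 0.26, 0.31 and 0.37 on the 2 Gy arrays and the 26 dimmer ones -0.00018, 0.019 and -0.080. The 1399 genes of like brightness had a median of 0.027 after 2 Gy, with 12.6% called higher. Brightness also went with the role, since all 7 Ndufaf genes were among the 26 dimmer ones. Its part in the result was not tested. Of the 24 genes with more than 1 kept probe, all probes had 1 sign for 18 after 2 Gy, 16 after 10 Gy and 12 after 5x2 Gy.

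**Figure D4:**
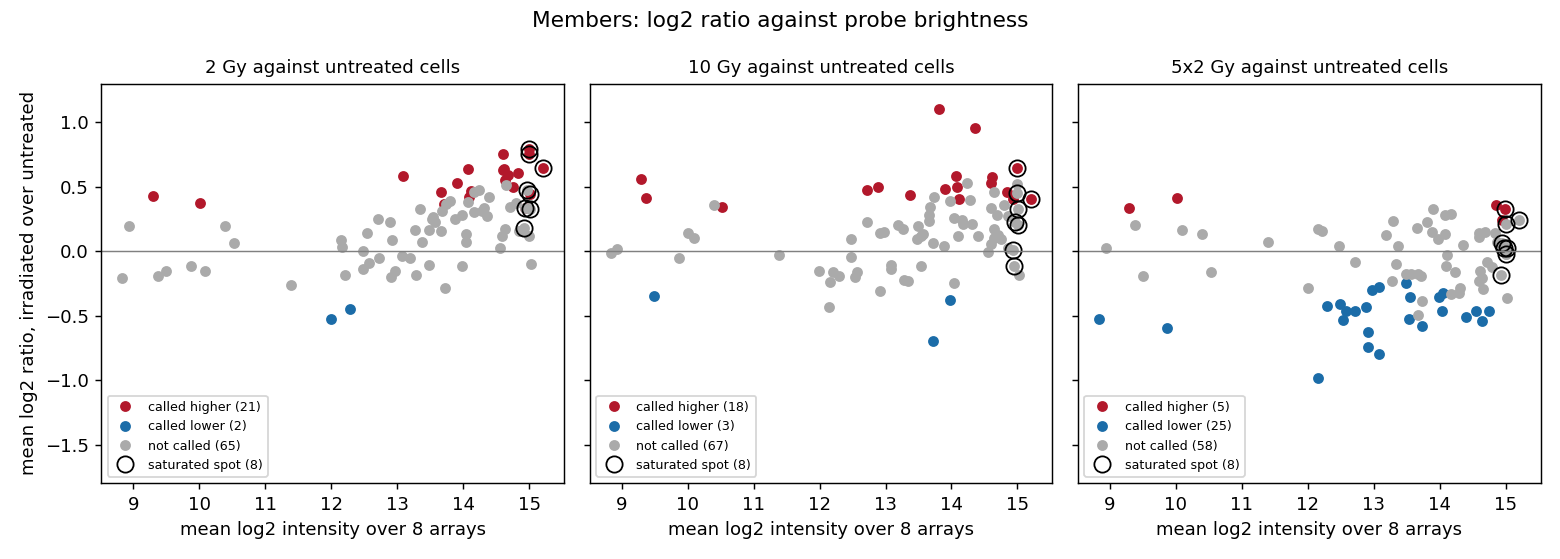
Mean log2 ratio of irradiated over untreated cells (vertical axis) against mean log2 intensity over the 8 arrays (horizontal axis) for the 88 genes at each regimen, red where called higher, blue where called lower and grey where not called. After 2 Gy the genes called higher lie mostly at the bright end, and rings mark the 8 genes with a saturated spot.

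The genes that serve or control the chain were read from 5 further lists, whose counts stand beside 8.96% higher and 7.95% lower among all genes after 2 Gy, 12.4% and 15.8% after 10 Gy, and 17.6% and 23.3% after 5x2 Gy. Of 15 measured genes of transcriptional control, Tfam had log2 ratios of -1.35, -1.31 and -1.24 on the 2 Gy arrays, -1.31 and -1.67 on the 10 Gy arrays, and -1.50, -1.01 and -1.21 on the 5x2 Gy arrays. It was low on all 8, with means of -1.30 ± 0.11, -1.49 ± 0.14 and -1.24 ± 0.11 (adjusted p = 0.00044, 0.00032 and 0.00018). Esrra, the receptor that induces many respiratory genes, rose after 10 Gy, with 1.34 and 1.07 and a mean of 1.21 ± 0.11, and after 5x2 Gy, with 0.72, 0.68 and 0.59 and a mean of 0.66 ± 0.090. Esrra was also higher after 10 Gy than after 2 Gy (0.92 ± 0.14, adjusted p = 0.022). Nrf1 fell after 10 Gy (-0.70 ± 0.12) and 5x2 Gy (-0.61 ± 0.099), Gabpb1 fell after 5x2 Gy (-0.63 ± 0.10), and Yy1 fell after 2 Gy (-0.45 ± 0.087) and 5x2 Gy (-0.45 ± 0.087). In all, 0 of the 15 rose and 3 fell after 2 Gy, 2 and 3 after 10 Gy, and 3 and 4 after 5x2 Gy.

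The factors and their motifs can be set side by side with the genes. Of the 7 genes with the longer NRF1 motif, 4 were higher and 1 lower after 2 Gy, 3 were higher and 0 lower after 10 Gy, and 0 were called after 5x2 Gy. Of the 17 with the GABP/ETS motif, 6 were higher after 2 Gy, 5 after 10 Gy and 0 after 5x2 Gy, when 2 were lower. Of the 11 with the YY1 motif, 3 were higher after 2 Gy, 3 were higher and 1 lower after 10 Gy, and 5 were lower after 5x2 Gy. Of all 88 genes, 23.9% were higher after 2 Gy, 20.5% higher after 10 Gy and 28.4% lower after 5x2 Gy. These are counts of letters in a window and say nothing of binding.

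Of 4 measured subunits encoded in mitochondrial DNA, ND4 of complex I had -2.54 and -0.15 on the 10 Gy arrays and COX2 of complex IV had -1.75 and -0.089. Both were called lower after 10 Gy (-1.34 ± 0.43 and -0.92 ± 0.30, adjusted p = 0.042 and 0.046), but the drop stood on replicate 1 alone. CYTB of complex III and ATP6 of complex V were low on that array too, at -1.45 and -1.66, against 0.11 and 0.54 on replicate 2. None of the 4 was called after 2 Gy or 5x2 Gy, and 3 of them had saturated spots.

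Of 14 electron carriers and exchangers, Slc25a3, the phosphate carrier that feeds ATP synthase, rose at all regimens (0.66 ± 0.11, 0.52 ± 0.13 and 0.43 ± 0.11). Cycs, the cytochrome c that links complexes III and IV, fell after 5x2 Gy, with -0.58, -0.98 and -0.81 and a mean of -0.79 ± 0.099 (adjusted p = 0.00051). The adenine nucleotide carriers parted there, Slc25a4 at -0.46 ± 0.090 and Slc25a5 at 0.42 ± 0.092. Over all regimens, Slc25a4 had a saturated spot on 1 array and Slc25a5 on 3, and their ratios are inexact there. The list had 3 higher and 0 lower after 2 Gy, 2 and 0 after 10 Gy, and 2 and 3 after 5x2 Gy. Of 38 assembly factors outside the naming rule, 5 rose and 1 fell after 2 Gy, 3 rose and 2 fell after 10 Gy, and 5 rose and 9 fell after 5x2 Gy. Timmdc1, which builds the membrane arm of complex I, fell at all regimens (-0.66 ± 0.11, -0.74 ± 0.13 and -0.87 ± 0.11), and Ecsit, also known for complex I assembly, rose at all of them (0.66 ± 0.096, 0.74 ± 0.12 and 0.45 ± 0.096). Of 18 enzymes of the citric acid cycle and its entry, 0 rose and 2 fell after 2 Gy, 0 and 4 after 10 Gy, and 3 and 5 after 5x2 Gy. Dld, the lipoamide dehydrogenase shared by several of these enzymes, fell at all regimens (-0.50 ± 0.10, -0.50 ± 0.13 and -0.83 ± 0.10).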

How the data were processed

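The scanner files hold an intensity per spot and channel (mean and median pixel signal), deposited without background correction or normalization, per the file headers. The authors' series matrix gives log2 values for the same arrays, whose scale and direction were settled against the scanner ratios (r of 0.998 to 1.000, column medians of -0.0045 to 0.0087). The scanner means were corrected with normexp (offset 50) and normalized by loess within each array, control spots at weight 0, in limma 3.58.1 (R 4.3.3). A probe was kept if above the median of 153 negative controls plus 2.6 robust SD in 1 or both channels on at least 2 arrays, and the brightest kept probe stood for its symbol. The number of arrays limits the precision. On each array, 30 to 51 of the respiratory chain genes had a spot flagged by the scanner. No setting left flagged spots out, so their part in the results was not tested.

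One mean per regimen was fitted to all 8 arrays in limma (lmFit, eBayes), tested against 0 and between regimens, with Benjamini-Hochberg adjustment over 13343 genes, calling a gene at an adjusted p under 0.05. Pooling lends the 10 Gy pair the spread of the other arrays. The labels do not say whether same-numbered arrays share a culture, and the main fit did not pair them. Their deviations from the regimen means correlated at -0.24 to 0.11. These values cannot settle the question, since deviations within a regimen are forced apart, and those of the 10 Gy pair mirror each other (r = -1). For genes dim or saturated in 1 channel on every array of a regimen, the fold is a bound, from channel values after loess and Aquantile scaling. The fit was tested on simulated data with known changes. The noise there was drawn independently for each gene and array, without a slide effect, so the simulation cannot speak to errors from slides.

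The genes and the further lists were chosen with earlier results of these data known, so no p is given for a list. Genes named are, per comparison, up to 4 called in each direction with the smallest p (3 where none was called), the extremes of each complex, isoform pairs, all Sdh genes, genes whose probes disagree, and up to 2 per direction from the further lists. A few more were named after their values were seen to fill out a complex. Alternatives were other background corrections, scalings, filters and probes, slide or replicate number as a block, other estimates of the spread, and each array left out. Symbols not matched by the rule and the third 10 Gy replicate were not analysed here. Gene names follow the array, and the build of its probes is not given in the sources used here.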

Additional observations from a re-analysis of the deposited data

Results flagged for a closer look

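Between regimens, the test of the difference itself called 4 results. Ndufv3 was lower after 10 Gy than after 2 Gy by a log2 difference of -0.69, and after 5x2 Gy than after 2 Gy by -0.86, on 1 of its 3 probes. Cox5a was lower after 5x2 Gy than after 2 Gy by -0.97, and Uqcrb by -1.07. For 25 of the 88 genes, all 5x2 Gy arrays lay below 0 and all 2 Gy arrays above 0, against 5.43% of all genes. That opposite direction was not tested as a group. Among the 25 were Cox5a, Uqcrb, Ndufs3, Ndufb8, Atp5d and Atp5g1. The regimens lay on different slides, whose part in these results was not tested beyond the fits with slide as a block.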

How the results depend on the processing

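The counts of called genes moved with the estimate of the spread and with the scaling, and the median moved with the scaling, with slide as a block and with single arrays. With slide as a fixed block the median of the 81 genes other than Ndufaf was 0.039 after 2 Gy (0.25 without it), -0.0086 after 5x2 Gy (-0.16) and -0.081 for 5x2 Gy against 2 Gy (-0.41). With 1 array of the regimen left out, the median of the 88 was 0.18 to 0.22 after 2 Gy, 0.084 to 0.32 after 10 Gy and -0.18 to -0.10 after 5x2 Gy. With median centring in place of loess the medians were 0.69 after 2 Gy, 0.66 after 10 Gy and -0.013 after 5x2 Gy, all genes shifting by 0.13 after 2 Gy. The called genes then numbered 59 (2 Gy), 53 (10 Gy), 19 (5x2 Gy), 0 (10 Gy against 2 Gy) and 18 (5x2 Gy against 2 Gy), against 23, 21, 30, 1 and 3 with loess. Of all genes, 27.0%, 29.2%, 39.0%, 3.69% and 5.57% were then called, against 16.9%, 28.2%, 40.9%, 2.56% and 1.26% with loess. In the same order, slide as a fixed block gave 24, 36, 18, 15 and 10 (33.2%, 48.7%, 36.6%, 32.1% and 17.7% of all genes). As a random block it gave 0, 2, 0, 8 and 1 (0.165%, 10.9%, 6.1%, 21.6% and 1.77%). With regimens fitted alone or in pairs the counts were 43, 0, 49, 0 and 47 (35.9%, 2.29%, 59.9%, 0% and 29.9% of all genes). With array weights they were 65, 0, 58, 0 and 57 (54.5%, 1.69%, 66.7%, 0.015% and 44.8%). A fit without both 10 Gy arrays was chosen after seeing the data. Its counts were 47 for 2 Gy (40.2% of all genes), 48 for 5x2 Gy (59.5%) and 47 for 5x2 Gy against 2 Gy (29.9%). The mean of all probes gave 0 for 10 Gy against 2 Gy (2.31% of all genes) and 6 for 5x2 Gy against 2 Gy (1.81%). There no background correction gave 5 (1.84%). With 1 array left out the counts ranged from 5 to 47 (2 Gy), 9 to 43 (10 Gy), 11 to 48 (5x2 Gy), 0 to 15 (10 Gy against 2 Gy), 0 to 47 (5x2 Gy against 2 Gy) and 0 to 45 (5x2 Gy against 10 Gy, where all other settings gave 0). The highest counts came without a 10 Gy array and the lowest without an array of another regimen. The share of all genes called moved in the same way. The cause was not tested.

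The replicate number was also used as a block, though the labels do not give it as a pairing. Against untreated cells, 18, 6 and 26 genes were then called after 2 Gy, 10 Gy and 5x2 Gy. Of all genes, 10.6%, 17% and 35.3% were called there. Between any 2 regimens the block left 0 calls among the 88 and among all genes. Of 843 recomputed values of the 39 named results, 837 kept their sign, and 626 of those also kept their call. With regimens fitted alone, eBayes with trend or an array of another regimen left out, the mean cannot change, so the sign was kept by design. Of the 39, 0 kept their call in every setting, and 35 lost it with slide as a random block. The 6 values that reversed were Atp5b with an unsaturated probe (-0.11 after 2 Gy, -0.15 after 5x2 Gy), Ndufaf4 after 2 Gy (0.078), Ndufa7 (-0.099) and Ndufv3 (0.16) after 5x2 Gy with the mean of all probes, and Atp5f1 after 10 Gy with median centring (0.19). The other settings, namely the series matrix values, both filters and eBayes with trend, left each count against untreated cells within 1.5 times. For 87 of the 88 genes both channels were above background on all 8 arrays, though some of these genes, such as Cox7a1 and Cox6b2, were dim. Saturation limits 8.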
